A study of Mus musculus with 10 samples.

Results

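Gene-body regions open in every group were 32327 of the 211107 distinct accessible regions that ATAC-seq found in Myc-CaP mouse prostate cancer cells. They were chosen from the peak calls and the gene annotation. Called intervals of the 5 peak lists were merged where they overlapped by 1 bp, a merged region was kept if all 5 lists called it, and it had to lie outside the 1000 bp on either side of every annotated transcript start and overlap a protein-coding gene body. That left 37.9% of the 85377 regions that all 5 lists called, 24.2 Mb of sequence in 9413 of 21938 protein-coding genes (42.9%). Myc-CaP is an androgen-responsive line made from a prostate carcinoma of a transgenic FVB/NJ male mouse that expresses human MYC in the prostate, so every group is 1 cell line. Cells were left untreated (Ctrl) or exposed for 48 h to 2 µM oxaliplatin (Oxali), 2 µM cisplatin (Cispl), 1000 pg per ml of interferon-γ (IFNγ), or oxaliplatin and interferon-γ at those amounts (Oxali + IFNγ). Each group had 2 libraries, which the authors pooled before calling peaks, so each group was 1 list. The pooled lists used here carry no signal per library, and differences between groups were therefore not tested.

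ATAC-seq reads the places where a transposase can cut DNA that is not wrapped in nucleosomes. Inside genes and away from start sites such places are mostly enhancers, elements bound by sequence-specific transcription factors that act on the same gene or a neighbour over a distance, along with sites of CTCF, the factor that anchors chromatin loops. Oxaliplatin and cisplatin are platinum drugs that crosslink DNA. Cisplatin holds its platinum with ammine ligands and oxaliplatin with a diaminocyclohexane ligand. Interferon-γ acts through JAK kinases and the interferon-γ activated site, called GAS, and through IRF factors, whose site is called ISRE.

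The DNA behind the results is shown as the strongest summit with 100 bases on either side, for members with extreme shifts in each treatment and for one of those with the highest levels. Single regions are ranked by shift only among members with a mean pileup of at least 100 and under 50% repeats, and by level among those under 50% repeats, with 1 region per gene, so members outside these limits can have larger values. The sequences are the + strand of the RefSeq copy of GRCm38 (mm10). Capitals mark every match to one of 18 short motifs searched on both strands. Members ahead of Lama2, Dram1, Sos1 and Creb3l2 in their order are not shown as sequence here, so these 4 are the next in line and not the first of that ranking. The members ranked first by positive and negative Oxali shift, in introns of Crocc2 and Focad, held no match.
Crocc2 region, chr1:93184236-93184436: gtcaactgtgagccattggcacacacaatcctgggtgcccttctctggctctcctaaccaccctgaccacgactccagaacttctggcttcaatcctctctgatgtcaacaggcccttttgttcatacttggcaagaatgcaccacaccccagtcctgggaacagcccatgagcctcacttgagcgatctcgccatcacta
Focad region, chr4:88187761-88187961: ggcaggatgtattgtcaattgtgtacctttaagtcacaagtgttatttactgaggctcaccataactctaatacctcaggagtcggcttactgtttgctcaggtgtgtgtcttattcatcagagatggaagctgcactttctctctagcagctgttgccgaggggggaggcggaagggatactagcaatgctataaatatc
For cisplatin, the member in a coding exon of Plin4 held a Runx match in a stretch with a repeat of 20 bases, and the Lama2 member held matches to AP-1 and forkhead.
Plin4 region, chr17:56105345-56105545: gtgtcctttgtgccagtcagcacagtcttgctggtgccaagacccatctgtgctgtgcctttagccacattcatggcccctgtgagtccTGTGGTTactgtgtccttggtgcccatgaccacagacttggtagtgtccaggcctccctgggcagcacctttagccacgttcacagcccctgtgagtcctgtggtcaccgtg
Lama2 region, chr10:27249908-27250108: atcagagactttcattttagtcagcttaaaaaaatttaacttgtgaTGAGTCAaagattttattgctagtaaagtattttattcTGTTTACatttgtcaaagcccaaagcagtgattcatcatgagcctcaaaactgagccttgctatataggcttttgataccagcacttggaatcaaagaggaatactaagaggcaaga
For interferon-γ, the Hivep3 member held 2 AP-1 matches and the Dram1 member a steroid receptor match.
Hivep3 region, chr4:119786438-119786638: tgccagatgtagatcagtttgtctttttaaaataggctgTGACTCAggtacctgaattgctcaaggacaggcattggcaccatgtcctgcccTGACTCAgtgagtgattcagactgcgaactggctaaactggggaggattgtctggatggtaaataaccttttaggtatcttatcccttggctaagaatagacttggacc
Dram1 region, chr10:88330857-88331057: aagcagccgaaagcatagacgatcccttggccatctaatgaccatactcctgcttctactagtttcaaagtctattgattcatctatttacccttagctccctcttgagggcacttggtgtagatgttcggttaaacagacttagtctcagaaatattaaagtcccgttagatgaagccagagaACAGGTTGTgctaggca
For oxaliplatin with interferon-γ, the Kcnn3 member held an NF-kappaB match, and the Sos1 member was a tandem repeat in which a run of 100 bases occurs again.
Kcnn3 region, chr3:89522850-89523050: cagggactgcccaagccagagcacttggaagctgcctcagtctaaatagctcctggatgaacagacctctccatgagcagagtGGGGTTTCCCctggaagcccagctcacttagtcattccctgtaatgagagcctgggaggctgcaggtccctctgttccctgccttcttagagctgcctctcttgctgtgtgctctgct
Sos1 region, chr17:80468527-80468727: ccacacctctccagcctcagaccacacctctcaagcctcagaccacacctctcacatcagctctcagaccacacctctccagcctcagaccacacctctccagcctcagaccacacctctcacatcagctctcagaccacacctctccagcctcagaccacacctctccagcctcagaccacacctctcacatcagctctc
Among the members with the highest levels, the one in an intron of Creb3l2 held an AP-1 match and a steroid receptor match.
Creb3l2 region, chr6:37398938-37399138: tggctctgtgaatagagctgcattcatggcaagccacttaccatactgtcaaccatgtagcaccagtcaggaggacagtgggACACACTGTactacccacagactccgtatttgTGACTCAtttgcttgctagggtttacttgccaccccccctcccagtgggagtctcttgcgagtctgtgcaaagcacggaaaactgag

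Values were recovered from the deposited peak lists. A level is the highest pileup of extended reads at a summit in the region, divided by the genome-wide background pileup of that list. This background was 12.1 in Ctrl, 11.3 after Oxali, 13.8 after Cispl, 9.62 after IFNγ and 12.9 after Oxali + IFNγ. The lists held 201223, 259794, 299424, 201782 and 298522 summits, in the same order. A shift is the log2 ratio of levels between a pair of lists less its median over all 85377 shared regions, so 0 is the median shared region and not an absolute lack of change. Against Ctrl, the median taken off was 0.15 for Oxali, 0.14 for Oxali + IFNγ, 0.07 for Cispl and -0.25 for IFNγ. Intervals given for single regions are 95% counting intervals, and neither they nor the Wilson intervals of shares cover variation between cultures. The counting intervals treat a pileup as independent counts, although both ends of a fragment can add to it. The lists called the starts of the epithelial keratin gene Krt8, at a level of 88.8 in Ctrl, and of the prostate factor Hoxb13, at 93.8. No list called the start of Cdh1, an epithelial cadherin, and only IFNγ called that of Epcam. Of 6 starts of blood cell genes, 1 was called in Ctrl and in IFNγ, with summed levels of 4.28 and 2.91, and 3 after Oxali, Cispl and Oxali + IFNγ, with 16.1, 11.8 and 17.5, so these low levels split by platinum as the members did. Of 3 endothelial starts 0 or 1 was called. Starts of fibroblast genes were called in 3 or 4 of 5 cases, Pdgfra at 112 in Ctrl, with summed levels from 119.7 in Cispl to 164.7 in Ctrl, and the part of these cell types in the results was not tested.

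The rule itself fixed that a member is called everywhere, and it selected strong regions. Gene-body regions numbered 87456 in all, and the median of their mean level was 2.76 for the 22509 called by 1 list, 4.41 for the 8159 called by 4 lists and 10.8 for the members. Among those just outside, called by 4 lists, the missing list was IFNγ for 4822 (59.1%), Ctrl for 2004 (24.6%) and one of the other 3 lists for the rest. Members from 1000 to 1500 bp from the nearest start numbered 674 and had a median Ctrl level of 9.84, against 13.8 for the 1278 start-site regions with their centre in that range. Of the members, 97.5% had a q-value of at most 0.01 in every list, and pileups ran from 18 to 15108. The strongest summits of the 5 lists lay within 150 bp of each other in 88.7% of the members. Repeats made up 50% or more of 3565 members (11.0%).

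Members were moderately open, and most open in the lists with a platinum drug. Their median level was 9.23 in Ctrl, 12.2 after Oxali, 11.8 after Cispl, 7.79 after IFNγ and 12.3 after Oxali + IFNγ. Shared intergenic regions had nearly the same medians, from 8.00 in IFNγ to 12.6 in Oxali + IFNγ. Shared start-site regions stood far above both, at 46.0 in Ctrl, and their order was another one, with Ctrl highest and Oxali + IFNγ lowest at 34.2. Across the middle 80% of members the level ran from 3.38 to 36.7 in Ctrl and from 4.49 to 41.1 in Oxali + IFNγ. The highest of its 5 levels was in Oxali + IFNγ for 28.6% of members, in Cispl for 23.7%, in Oxali for 23.1%, in Ctrl for 18.3% and in IFNγ for 6.41%. Its lowest was in IFNγ for 49.7%, the list with the lowest genome background, whose part in this was not tested. The ratio of a member's highest to its lowest level had a median of 1.84, was under 1.5 in 22.4% of members and at least 4 in 1802 (5.57%).

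**Figure D1:**
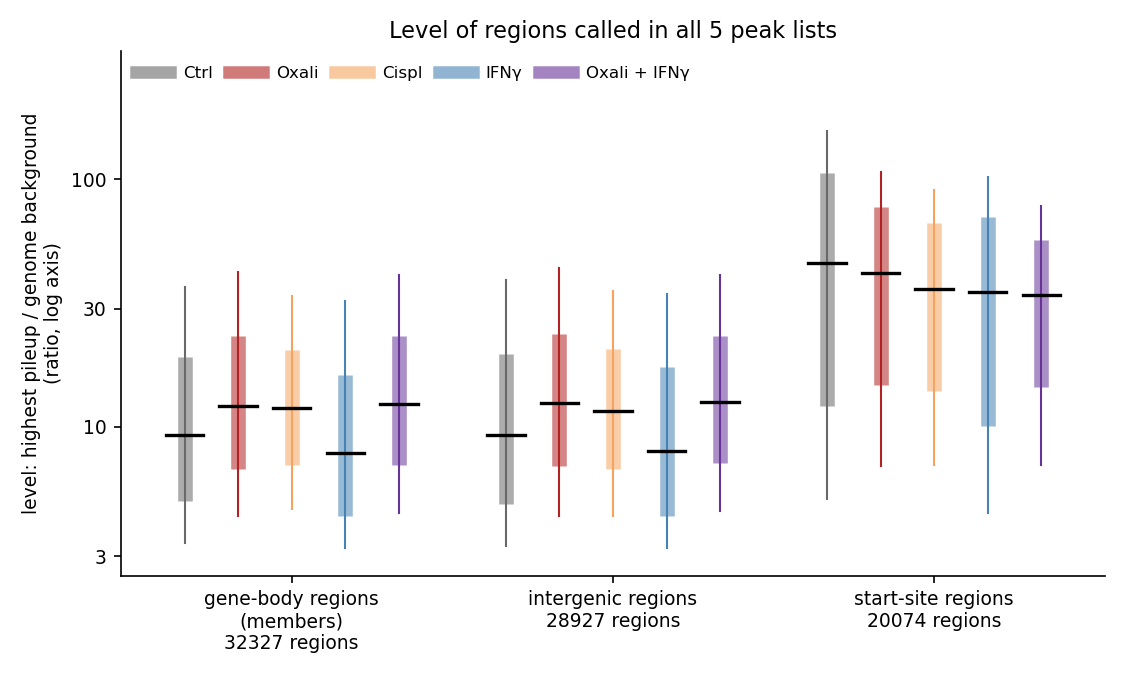
Distribution of levels (pileup over genome background, log axis) in the 5 lists, for members, shared start-site regions and shared intergenic regions, with a black bar at the median, a box over the quartiles and a line from the 10th to the 90th percentile. The median of members lies between 7.79 in IFNγ and 12.3 in Oxali + IFNγ, close to intergenic regions, while start-site regions lie between 34.2 and 46.0.

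The members with the highest levels included regions in Lars2, Creb3l2 and Foxk1. A region at chr9:123461729-123462257 lay over an untranslated part of Lars2, the mitochondrial leucyl-tRNA synthetase, and stood at 340.2 in Ctrl, 522 after Oxali, 260.3 after Cispl, 328 after IFNγ and 431 after Oxali + IFNγ. It was highest in Oxali. The region in intron 1 of Creb3l2, a transcription factor of the endoplasmic reticulum stress family, stood at 241, 254, 159.9, 213 and 226. In intron 2 of the forkhead factor gene Foxk1 the levels were 273, 182, 143, 192 and 128, highest in Ctrl. Regions in Gphn, Jarid2, Ston1 and Mroh4 had levels from 121 to 258. Gphn encodes the synaptic scaffold gephyrin and Jarid2 a partner of the Polycomb complex PRC2, and both were highest in Oxali. Cispl was the lowest list in 6 of these 7 regions and Oxali + IFNγ in Foxk1.

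Most members were intronic. Introns held 29358 (90.8%, Wilson interval 90.5 to 91.1), the first intron 7933 (24.5%) and later introns 20502 (63.4%). Coding exons held 765 (2.37%), UTRs 1289 (3.99%) and exons of noncoding transcripts 639 (1.98%). The median member was 684 bp wide and 9048 bp from the nearest start. It had a GC content of 47.6% and an observed-to-expected CpG ratio of 0.19, whereas shared start-site regions had 54.7% and 0.50 and intergenic ones 47.4% and 0.19. In Ctrl the median level was 9.64 in first introns, 8.90 in later introns and 11.1 in UTRs.

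Within 100 bases on either side of the summit, AP-1 was the most frequent of the motifs searched. AP-1 (TGANTCA with C or G in the middle), the site of Fos and Jun factors, was in 23.8% of members (23.4 to 24.3), in 23.0% of shared intergenic and 11.3% of shared start-site regions, and in 17.6% of all 211107 merged regions. CTCF, searched by its core consensus, was in 6.85% of members (6.58 to 7.13), in 7.70% of shared intergenic regions (7.39 to 8.01), above members, in 3.73% of start-site and 3.52% of all regions. A steroid receptor match (ACA and TGT 3 bases apart) was in 11.6% of members and 10.8% of all regions, Runx (TGTGGTT) in 10.3% of members and 10.3% of all, forkhead (TGTTTAC) in 5.65% and 4.37%, and TEAD (CATTCCA) in 5.29% and 4.70%. Intervals of members and start-site regions were apart for each of these. The GC box (GGGCGG) went the other way, with 5.86% of members, 41.3% of start-site regions and 8.46% of all. NRF1 was in 0.108% of members and 4.40% of start-site regions, the site of GATA factors (AGATAAG) in 1.81% of members and 1.56% of all regions, and p53, as a strict consensus, in 2 members. The Myc E-box (CACGTG) was in 3.53% of members and 6.33% of start-site regions. GAS (TTC and GAA 3 bases apart) was in 5.93% of members and ISRE (GAAA and GAAA 2 bases apart) in 1.83%, against 6.05% and 2.58% of all regions. Short motifs also occur by base composition alone, and GC content differed between the sets as given above.

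With oxaliplatin, members were more often higher than lower. Relative to the median shared region, 8119 members (25.1%) were at least 1.5-fold higher in Oxali than in Ctrl and 2988 (9.24%) at least 1.5-fold lower, against 22.0% and 14.9% of all shared regions. The median shift of members was 0.10, with quartiles of -0.28 and 0.59, that of intergenic regions 0.11 and that of start-site regions -0.40. Higher members made up 73.1% of those past the fold, 86.3% with no centring and 61.8% where regions were centred within classes of like level. Where called intervals had to cover 50% of a region in every list, the median shift was 0.00098. Higher members had a median level of 5.60 in Ctrl and 13.8 in Oxali, and lower ones 12.4 and 7.63. These sets were chosen by the ratio of the same levels, so their difference in Ctrl is partly built in. Their mean levels over the 5 lists were alike, with medians of 10.0 and 9.62.

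The largest positive shifts among the ranked members were in regions near the calling limit in Ctrl. Ctrl is the list divided by, so a low Ctrl level is partly built into this ranking. A region in intron 4 of Crocc2, a relative of the ciliary rootlet gene, at chr1:93183968-93184821 stood at 2.80 in Ctrl, 41.4 after Oxali, 18.2 after Cispl, 3.22 after IFNγ and 38.9 after Oxali + IFNγ. Its shift with oxaliplatin was 3.74 (3.24 to 4.29). The lists fell apart into a pair near 3 without platinum and 3 lists at 18.2 or more with it. In intron 6 of Gsap, a gamma-secretase activating protein, the region at chr5:21220431-21221212 stood at 2.55, 28.1, 8.50, 3.53 and 35.6, a shift of 3.31 (2.78 to 3.90). In intron 47 of Fras1, a basement membrane protein, the levels were 2.14, 22.8, 6.47, 2.39 and 20.8 and the shift 3.27 (2.68 to 3.91). In intron 3 of Nell2, a secreted glycoprotein, they were 3.13, 31.8, 19.4, 3.95 and 32.5, and the shift 3.20 (2.72 to 3.72). Each of these 4 was also higher in Cispl than in Ctrl, by 1.53 to 2.63, with intervals clear of 0, and had an IFNγ shift whose interval held 0. The second largest Oxali shift, 3.63 in Plin4 (described with cisplatin), departed from that, with an IFNγ shift of 0.95 (0.14 to 1.79).

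The largest negative shift among the ranked members was in intron 10 of Focad, the focadhesin gene, at chr4:88187172-88188403, with levels of 15.8 in Ctrl, 4.08 after Oxali, 9.23 after Cispl, 8.94 after IFNγ and 5.35 after Oxali + IFNγ. The shift was -2.10 (-2.60 to -1.63), and all 4 treated lists stood below Ctrl. In intron 7 of Babam2, a subunit of the BRCA1-A repair complex, the levels were 20.5, 6.12, 10.7, 19.0 and 6.04, a shift of -1.89 (-2.30 to -1.50). A region of 2032 bp in intron 2 of the insulin receptor gene Insr stood at 32.9, 10.5, 13.7, 40.3 and 15.2, a shift of -1.80 (-2.11 to -1.50), so that IFNγ was the highest list and the platinum lists were the lowest. Ccbe1 and Memo1, the other named regions lower with oxaliplatin, had shifts of -1.79 and -1.74 and Cispl shifts of -1.40 and -1.67.

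With cisplatin, 7837 members (24.2%) were at least 1.5-fold higher than in Ctrl and 2924 (9.05%) lower, against 20.4% and 16.8% of all shared regions. The median shift was 0.12 in members, 0.09 in intergenic and -0.47 in start-site regions. Higher members were 72.8% of those past the fold, 80.1% with no centring and 62.0% within level classes. The direction of the median turned, to -0.014, where called intervals had to cover 50% of a region in every list, and 3461 members were then higher. Lower members were the strong ones, with a median level of 28.0 in Ctrl and 16.6 in Cispl, whereas higher ones stood at 4.86 and 10.7. The first in rank lay at chr17:56104311-56106587 over a coding exon of Plin4, a protein of lipid droplets, with levels of 1.98 in Ctrl, 27.1 after Oxali, 18.9 after Cispl, 3.22 after IFNγ and 23.8 after Oxali + IFNγ. Its Cispl shift was 3.19 (2.58 to 3.86) and its Oxali shift 3.63. A region in intron 5 of Cd44, the hyaluronan receptor gene, at chr2:102849693-102850581 stood at 2.47, 10.5, 20.8, 2.39 and 9.45, a Cispl shift of 3.00 (2.46 to 3.60) against an Oxali shift of 1.94 (1.35 to 2.57). In intron 6 of the amino acid transporter gene Slc38a10 the levels were 2.55, 8.96, 17.3, 2.81 and 9.22. Cd44 and Slc38a10 were thus highest in Cispl, with both oxaliplatin lists between it and the lists without platinum. Regions in Klhdc4, which also lies in the read-through locus Gm20388, and in Cfap43, a gene of cilia and flagella, had shifts of 2.81 and 2.68.

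At the other end, a region in intron 14 of Lama2, the laminin alpha 2 gene, at chr10:27249432-27250504 stood at 31.3 in Ctrl, 19.7 after Oxali, 9.37 after Cispl, 35.3 after IFNγ and 22.2 after Oxali + IFNγ. Its Cispl shift was -1.81 (-2.11 to -1.52), its Oxali shift -0.82 (-1.06 to -0.57) and its IFNγ shift 0.42 (0.21 to 0.64). In intron 1 of Lima1, an actin-binding protein, the levels were 55.7, 35.5, 17.4, 57.2 and 30.5, with a Cispl shift of -1.75 (-1.97 to -1.54). The order was the same in both regions except between the oxaliplatin lists, with Cispl lowest and the lists without platinum highest. Fggy, a carbohydrate kinase gene, went the same way, with a Cispl shift of -1.74 (-2.10 to -1.38) and an IFNγ shift of 0.48 (0.22 to 0.74). The region in Cdk17, a cyclin-dependent kinase gene, had a Cispl shift of -1.78, and the one in Prr16 -2.04. Of these 5 regions, picked by shift, Lama2, Lima1 and Fggy held an AP-1 match. AP-1 was in 23.8% of all members and in 31.6% of those lower in Cispl.

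With interferon-γ the shifts were smaller. The list placed 3465 members (10.7%) at least 1.5-fold above Ctrl and 1994 (6.17%) below it, against 9.89% and 6.62% of all shared regions, shares close to the background. The median shift was 0.04 in members, 0.07 in intergenic and -0.18 in start-site regions. Higher members were 63.5% of those past the fold, but 19.0% with no centring, where the median shift of members was -0.21, and 52.3% within level classes, so the direction of the whole rests on the centring. The first in rank was in an intron of Hivep3, a zinc finger factor gene, at chr4:119786210-119787052, with levels of 3.54 in Ctrl, 8.16 after Oxali, 8.21 after Cispl, 11.2 after IFNγ and 12.8 after Oxali + IFNγ. The shift was 1.91 (1.39 to 2.46), and all 4 treated lists were above Ctrl. A member in Daam1 outside the ranking had a larger IFNγ shift, 2.14. In intron 1 of Jmy, a cofactor of p53 that also nucleates actin, the levels were 4.37, 9.58, 9.74, 12.8 and 14.5, the same order, with a shift of 1.80 (1.32 to 2.29). Regions in Diaph1, a formin gene, Zfp266 and Basp1 had IFNγ shifts of 1.89, 1.81 and 1.77, and their Oxali shifts were 1.71, 1.91 and 1.21. AP-1 matches were in 4 of these 5 regions, all but Basp1, and a GAS or ISRE match in 0 of the 5. Over all members the shares were 23.8% for AP-1, 5.93% for GAS and 1.83% for ISRE. At such low GAS and ISRE shares, a count of 0 in 5 regions picked by shift says little.

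Regions lower with interferon-γ divided by their levels with platinum. A region at chr10:88330770-88331149 in an intron of Dram1, an autophagy regulator known as a p53 target, stood at 12.4 in Ctrl, 17.4 after Oxali, 14.5 after Cispl, 3.12 after IFNγ and 13.6 after Oxali + IFNγ, a shift of -1.74 (-2.35 to -1.16). In intron 22 of Itgae, the integrin alpha E gene, the levels were 8.16, 13.0, 15.2, 2.29 and 14.2, and the shift -1.58 (-2.32 to -0.91). Both were low in IFNγ alone and at or above Ctrl in Oxali + IFNγ. In contrast, a region in intron 2 of Vil1, the villin gene, stood at 48.1, 18.6, 24.5, 12.4 and 8.45, and one in intron 5 of Galnt1, a glycosyltransferase gene, at 50.1, 22.8, 23.5, 11.6 and 12.3. Ctrl was above every treated list in both, and the IFNγ shifts were -1.71 (-2.01 to -1.42) and -1.86 (-2.16 to -1.56). Atxn7, a subunit of the SAGA coactivator, also had Ctrl highest, with a shift of -1.69.

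With oxaliplatin and interferon-γ together, 8884 members (27.5%) were at least 1.5-fold above Ctrl and 3696 (11.4%) below, against 24.0% and 20.9% of all shared regions. This comparison and the 3 others against Ctrl share the Ctrl list, so their likeness is partly built in. The median shift was 0.12 in members, 0.13 in intergenic and -0.61 in start-site regions. Higher members were 70.6% of those past the fold, 82.6% with no centring and 60.7% within level classes. With 50% of a region covered in every list the median was 0.0051. The first in rank was a region in intron 1 of Kcnn3, a calcium-activated potassium channel gene, at chr3:89522415-89523304, with levels of 2.06 in Ctrl, 20.0 after Oxali, 11.2 after Cispl, 4.05 after IFNγ and 34.4 after Oxali + IFNγ. Its shift was 3.92 (3.34 to 4.57), and the combination stood above either agent alone. The Gsap, Crocc2 and Plin4 regions came next with 3.66, 3.66 and 3.45, then one in Gsg1l, a subunit of AMPA receptors, with levels of 2.14, 20.2, 4.94, 2.49 and 25.7 and a shift of 3.45 (2.87 to 4.08). The most negative of the ranked shifts was that of Vil1, at -2.65 (-2.96 to -2.35). The tandem repeat in intron 1 of Sos1, a Ras exchange factor gene, stood at 104, 43.6, 73.3, 50.4 and 25.1, with a shift of -2.19 (-2.37 to -2.01). A region in the annotated body of Cx3cr1, the fractalkine receptor gene, lay over a noncoding exon 58536 bp from the annotated gene start. It stood at 150.3, 72.0, 62.8, 68.3 and 37.5, a shift of -2.14 (-2.29 to -2.00). The Sos1 and Cx3cr1 regions had Ctrl highest and Oxali + IFNγ lowest, with each single agent between them.

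**Figure D2:**
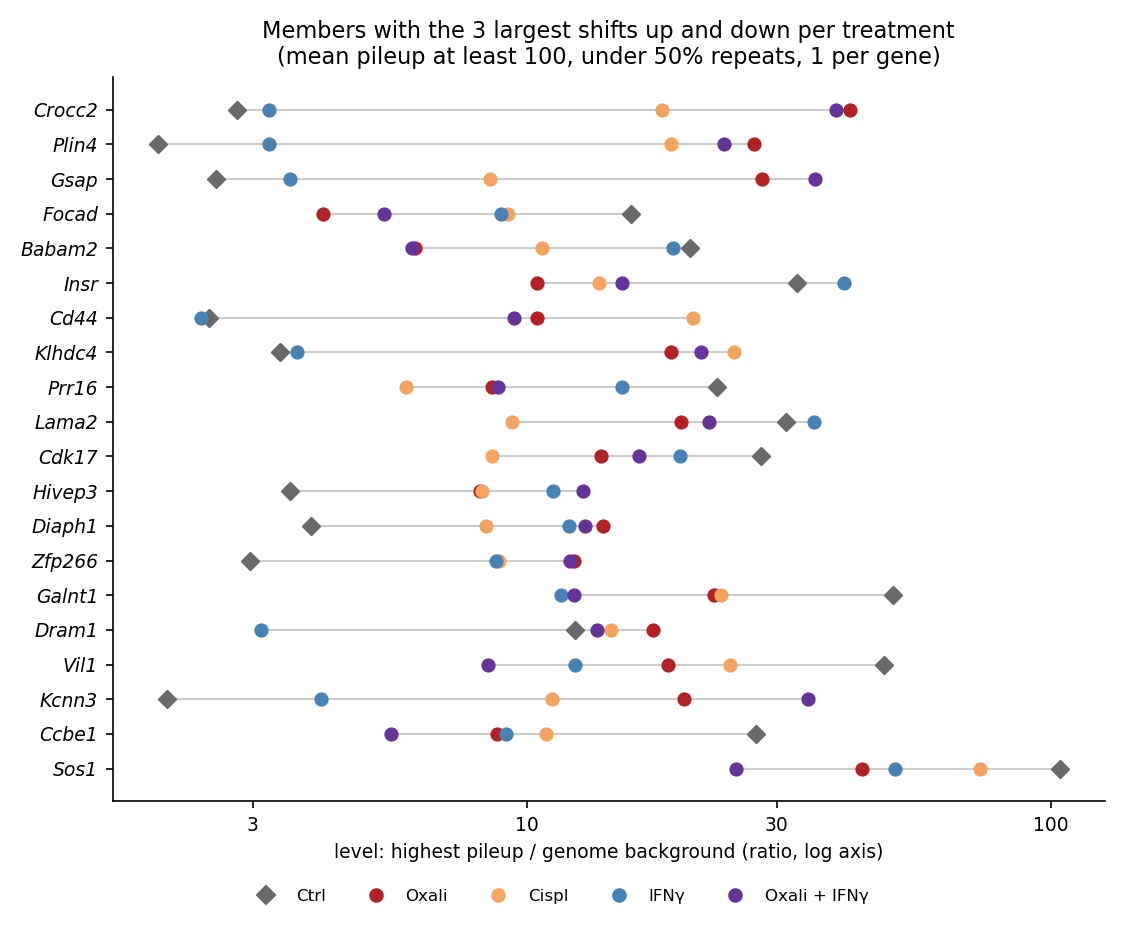
Levels (pileup over genome background, log axis) of the members with the 3 largest shifts up and down in each treatment, among those with a mean pileup of at least 100 and under 50% repeats, 1 per gene. Diamonds are Ctrl and dots the treated lists, so a dot right of the diamond is more open than Ctrl, as for Crocc2 at 2.80 in Ctrl and 41.4 in Oxali.

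The platinum drugs were set side by side at the same dose and time. Relative to the median shared region, 3622 members (11.2%) were at least 1.5-fold higher in Cispl than in Oxali and 2666 (8.25%) lower, against 8.53% and 7.43% of all shared regions. In shared intergenic regions the shares were 8.38% and 9.17%. Higher members were 57.6% of those past the fold, 34.7% with no centring and 42.9% within level classes, so no lean to either drug held across these settings. A region in intron 8 of Sh3pxd2a, a scaffold of podosomes, at chr19:47298590-47299449 stood at 4.20 in Ctrl, 5.23 after Oxali, 22.2 after Cispl, 4.68 after IFNγ and 4.57 after Oxali + IFNγ. It was raised in Cispl alone, by 2.22 (1.81 to 2.65) over Oxali. In intron 16 of Tle1, a Groucho corepressor gene, the levels were 7.08, 5.68, 22.5, 3.53 and 3.95, and in intron 3 of the inositol phosphate kinase gene Ip6k1, which Gm20662 overlaps, 8.07, 5.41, 17.7, 7.38 and 9.69. Both had the same single high list, with Cispl shifts over Oxali of 2.11 (1.72 to 2.53) and 1.84 (1.43 to 2.27). The mirror image was a region in intron 1 of the ferlin gene Fer1l6 at chr15:58534154-58534962, with levels of 4.70, 20.6, 4.58, 4.16 and 21.2, high in both lists with oxaliplatin only, and a shift of -2.04 (-2.46 to -1.63). Cdh23, a cadherin gene of sensory hair cells, had a region in intron 29 at 4.94, 23.4, 6.03, 6.13 and 28.8, with a shift of -1.83 (-2.20 to -1.47), and that of Gsg1l at -1.90 (-2.31 to -1.51).

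Adding interferon-γ to oxaliplatin left the fewest members past the fold of the 6 comparisons. Of these, 1130 members (3.50%) were higher in Oxali + IFNγ than in Oxali and 524 (1.62%) lower, against 3.02% and 4.25% of all shared regions. Shared intergenic regions were close to members, with 3.53% and 1.87%. Higher members were 68.3% of those past the fold, 55.5% with no centring and 43.0% within level classes. The first in rank was a region in intron 1 of Ifi47, an interferon-inducible GTPase gene that here overlaps the annotated body of Olfr56, at chr11:49081132-49081711, with levels of 5.93 in Ctrl, 7.27 after Oxali, 12.7 after Cispl, 2.81 after IFNγ and 15.9 after Oxali + IFNγ. It held GAS and ISRE matches. Its shift was 1.17 (0.79 to 1.56), while interferon-γ without oxaliplatin gave -0.83 (-1.53 to -0.17) against Ctrl. A member in Gm20388 outside the ranking had a slightly larger shift, 1.18. In intron 1 of Tmtc1, a mannosyltransferase gene, the levels were 5.03, 8.16, 7.56, 5.92 and 17.4, with a shift of 1.13 (0.77 to 1.50), and this window also held an ISRE match. The third in rank, in intron 2 of the collagen gene Col26a1, stood at 10.9, 9.14, 12.9, 8.52 and 19.2, again with Oxali + IFNγ highest. The ranked members lower with the addition were in an intron of Mid1, a ubiquitin ligase gene on the X chromosome, with levels of 47.5, 43.0, 37.9, 23.4 and 16.9 and a shift of -1.31 (-1.54 to -1.07), in Vil1 (-1.10) and over an untranslated part of the agouti gene a (-1.10), and unranked members in Lpp and Ank3 had -1.28 and -1.18. In Mid1 and Vil1 both lists with interferon-γ were below every list without it. Among the 524 lower members, 33.6% were at least 50% repeats, against 11.0% of all members.

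**Figure D3:**
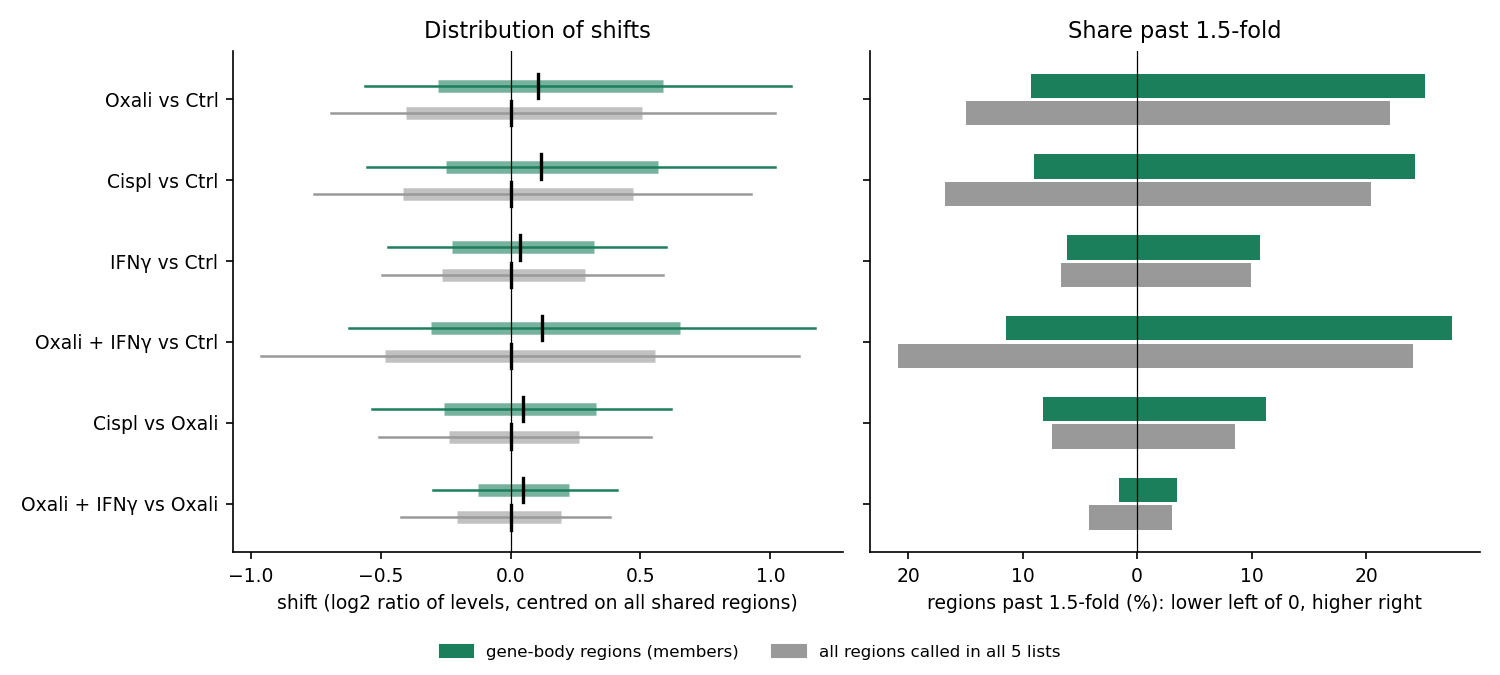
Left, shifts (log2) in the 6 comparisons for members and for all regions called in all 5 lists, with a tick at the median, a box over the quartiles and a line from the 10th to the 90th percentile. Right, the percentage past 1.5-fold in each direction, where members show 25.1% higher and 9.24% lower for Oxali against Ctrl and 3.50% and 1.62% for Oxali + IFNγ against Oxali.

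Shifts moved with the level of a region. When all shared regions were cut into 5 equal bins by mean level, the median Cispl shift of members, from the lowest bin to the highest, was 0.28, 0.33, 0.17, -0.05 and -0.38. For Oxali the medians were 0.10, 0.23, 0.14, 0.07 and -0.08, and for Oxali + IFNγ 0.16, 0.25, 0.15, 0.07 and -0.15. For IFNγ, 0.18 in the lowest bin was followed by medians between -0.03 and 0.03. Cispl against Oxali ran from 0.23 to -0.27. In the highest bin, start-site regions had a median Oxali shift of -0.62, below that of members. Levels were not equal within that bin, with a median mean level of 74.1 in start-site regions and 51.3 in members. By distance from a start, the median Oxali shift was -0.01 from 1000 to 1500 bp, 0.10 from 5000 to 20000 bp and 0.21 from 20000 to 100000 bp, but 0.13 in the 500 members beyond 100000 bp. The median Ctrl level was 9.84 in the first of these ranges and 7.91 in the last. A part of level in the differences between comparisons was not tested beyond the level classes given above.

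Motif shares differed between higher and lower members, with the widest range for AP-1. Among members higher in IFNγ than in Ctrl, 38.8% held AP-1 (37.2 to 40.5), among those within 1.5-fold 23.0% and among lower ones 8.83% (7.66 to 10.2). For Oxali the shares were 32.4%, 21.8% and 14.5%, and for Oxali + IFNγ 33.2%, 21.3% and 14.7%. Cisplatin departed from that order, with 25.5% of higher, 22.1% of those within the fold and 31.6% of lower members. Between the drugs, AP-1 was in 14.5% of members higher in Cispl than in Oxali and in 44.9% (43.0 to 46.8) of lower ones. The 7700 members with AP-1 had median levels of 9.72 in Ctrl, 15.5 after Oxali, 12.8 after Cispl, 9.46 after IFNγ and 16.2 after Oxali + IFNγ, and those without it 9.14, 11.5, 11.6, 7.38 and 11.4. With AP-1 the medians were thus higher in both oxaliplatin lists than in Cispl, and without it they were not. The order for IFNγ was the same in each of these level bins, from 30.0% to 51.4% of higher and from 7.23% to 13.8% of lower members. That for Cispl was not. In its 3 lower bins AP-1 was in 21.4% to 28.4% of higher and 17.3% to 23.8% of lower members, and in its highest bin in 29.4% and 42.4%.

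CTCF was less frequent among higher than lower members in the treatments against Ctrl, and not between treatments. It was in 1.29% of members higher in Oxali, 8.49% of those within the fold and 10.3% of lower ones, and in 0.606%, 7.71% and 6.02% for IFNγ. For Cispl the shares were 2.42%, 8.67% and 5.23%, and for Oxali + IFNγ 1.37%, 8.96% and 8.69%. In Cispl against Oxali it was in 5.00%, 7.78% and 0.225%, and in Oxali + IFNγ against Oxali in 4.42%, 6.99% and 3.44%. NF-kappaB was in 3.35% of members higher in Oxali and 1.64% of lower ones. ISRE was in 4.96% of members higher in Oxali + IFNγ than in Oxali, 1.74% of those within the fold and 0.573% of lower ones. IFNγ against Ctrl did not show that order, with ISRE in 1.70%, 1.88% and 1.45%. GAS was in 5.43%, 5.98% and 6.12% for IFNγ against Ctrl. Runx was in 8.05% of members higher in Oxali + IFNγ than in Oxali, 10.2% of those within the fold and 19.7% of lower ones. TEAD was in 4.03%, 5.02% and 9.68% for Cispl against Oxali. Over all members the shares were 10.3% for Runx and 5.29% for TEAD. These shares follow from sets chosen by the shift itself and are given as a description.

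**Figure D4:**
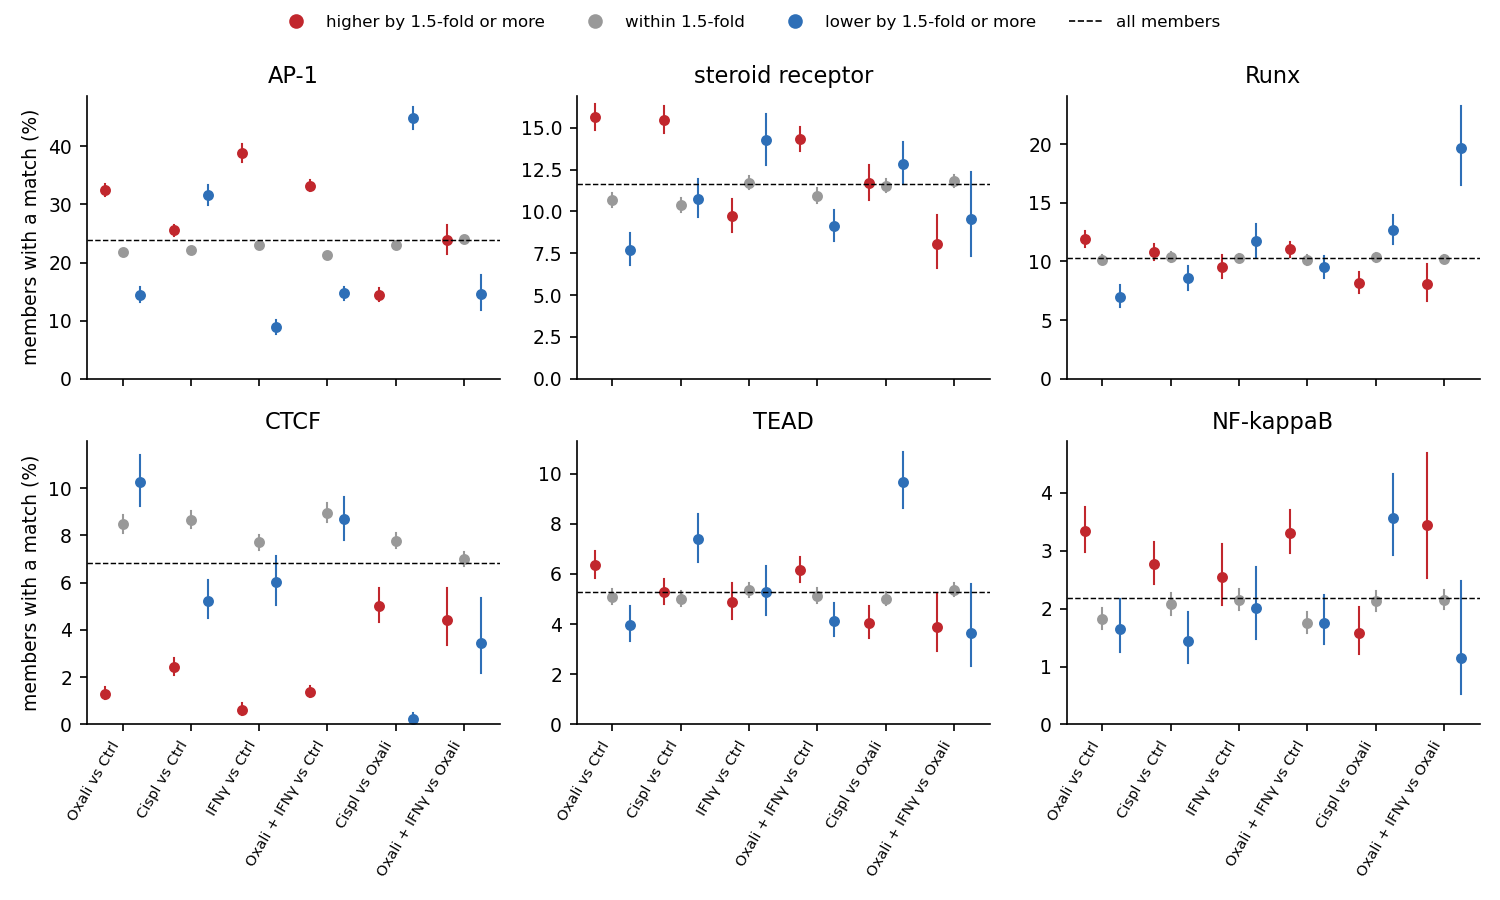
Percentage of members with a motif match within 100 bp of the summit, by whether the member was higher, within or lower than 1.5-fold in each comparison. Bars are Wilson intervals (95%, counting error alone), and the dashed line is the share in all members (23.8% for AP-1). For IFNγ against Ctrl, AP-1 was in 38.8% of higher and 8.83% of lower members.

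Members were spread unevenly over genes. The median gene with any had 2, 3598 genes had 1 and 1944 had at least 5. The most were in Gm20388, an annotated read-through locus of 4435 kb on chromosome 8 that spans many other genes, with 197. Fgfr2, a fibroblast growth factor receptor gene with an annotated body of 2961 kb, was the gene named for 85 by the most overlap, the cAMP phosphodiesterase gene Pde4d 68, Kalrn 52 and the adhesion protein gene Lpp 49. Ank3, Kcnma1, Wwox and Gm37240 had 38 to 42. Per length, these 9 genes had 2.73 to 8.60 members per 100 kb. Local background was at least 5 times the genome-wide value in every list for 1664 members (5.15%) in 923 genes. Gene dosage there was not tested.

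Among the genes with the most members, Lpp had an IFNγ median of 0.37, with 15 of 49 upward and 0 downward, and a Cispl median of -0.24, with 7 upward and 17 downward. Over all members 10.7% were upward and 6.17% downward in IFNγ, and 24.2% and 9.05% in Cispl. Kalrn, a guanine nucleotide exchange factor gene, had an IFNγ median of -0.11. In the other 7 of these genes, medians over the 4 treatments lay between -0.10 and 0.33.

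Among genes with at least 5 members, picked here for their median and so described only, the largest median Oxali shifts were in Syt1, a synaptic calcium sensor (1.86, 5 of 6 members upward), Htr4, a serotonin receptor (1.61, 4 of 5), Ccdc148 (1.56, 6 of 7) and Kcnmb2, a potassium channel subunit (1.54, 6 of 8). For Syt1 the median levels were 4.82 in Ctrl, 20.6 after Oxali, 12.1 after Cispl, 4.99 after IFNγ and 20.1 after Oxali + IFNγ. With Cispl the largest were Gatb (1.54), Stk24, a kinase gene (1.34), Daam1, a formin gene of Wnt signalling (1.30), and Pcca, a carboxylase subunit gene (1.28). All 8 members of Stk24 were past the fold in Cispl and 7 in Oxali. With IFNγ they were Lsamp (1.02, 3 of 5 upward and 1 downward), Il1r1, the interleukin-1 receptor gene (0.74, 5 of 8 upward), Gbx1 (0.67, 3 of 5) and the agouti gene a (0.65, 4 of 7 upward and 1 downward). The median level of the Lsamp members went the other way, from 16.2 in Ctrl to 10.1 in IFNγ. With Oxali + IFNγ, Htr4 (1.97, 5 of 5) and Syt1 (1.80, 6 of 6) led, followed by the factor gene Mecom (1.70) and Deup1 (1.69). The upward shares of all members were 25.1% for Oxali and 27.5% for Oxali + IFNγ, 24.2% with cisplatin and 10.7% with interferon-γ.

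Errfi1, an inhibitor of EGF receptor signalling, had the lowest median in Oxali and in Oxali + IFNγ. Its 5 members had median levels of 16.2 in Ctrl, 9.49 after Oxali, 12.1 after Cispl, 8.94 after IFNγ and 7.21 after Oxali + IFNγ. The median shift was -1.01 in Oxali and -1.30 in Oxali + IFNγ, with 5 of 5 members past the fold downward in each. Over all members the downward shares were 9.24% in Oxali and 11.4% in Oxali + IFNγ. The median shift of the Errfi1 members was -0.58 in IFNγ and -0.53 in Cispl. In Oxali the next were Tesc (-0.73), Rnf213, an interferon-induced ubiquitin ligase gene (-0.73), and Armc9 (-0.69). In Cispl they were R3hcc1l (-0.89), Pip5k1b, a phosphoinositide kinase gene (-0.71), Nt5dc3 (-0.70) and Srgap2, a GTPase activator gene (-0.60). In IFNγ Igsf11 (-0.80) and Ralgapa1 (-0.74) stood below Errfi1, and Sez6l (-0.58) was level with it to 2 decimals. In Oxali + IFNγ they were Vac14 (-0.83), Luc7l2 (-0.81) and Tnrc6c (-0.76). For Tesc the median level did not follow the median shift, at 8.16 in Ctrl and 9.31 after Oxali, and that of Tnrc6c was likewise above Ctrl after Oxali + IFNγ. Medians over 5 to 12 members of 1 list pair vary widely, and the members of a gene share a locus.

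Gene lists with members were described by counts and medians, which are read against all members, of which 25.1% were upward and 9.24% downward in Oxali, 24.2% and 9.05% in Cispl, and 10.7% and 6.17% in IFNγ. The mesenchymal and TGF-beta list (97 members) had median shifts of 0.32 in Oxali, 29 upward (29.9%) and 5 downward (5.15%), and 0.26 in Cispl, 34 (35.1%) and 6 (6.19%). The Oxali share upward was thus near that of all members. Without Tgfbr3 the Oxali median was 0.19. Its named region in intron 3 of the receptor gene Acvr1 stood at 2.47 in Ctrl, 13.0 after Oxali, 3.78 after Cispl, 4.68 after IFNγ and 17.3 after Oxali + IFNγ.

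NF-kappaB signalling had 61 members, with a Cispl median of 0.28, 18 upward (29.5%) and 0 downward, and an Oxali median of 0.12, 16 (26.2%) and 4 (6.56%), the latter near the shares of all members. In intron 4 of Traf2, an adaptor of the TNF receptor, at chr2:25533815-25535045, the levels were 8.24 in Ctrl, 59.6 after Oxali, 29.0 after Cispl, 4.16 after IFNγ and 56.0 after Oxali + IFNγ, so that all lists with platinum were above Ctrl and IFNγ below it. The Oxali shift was 2.71 (2.40 to 3.03), and the window held an NF-kappaB match. The p53 target list had 62 members and an Oxali median of -0.10, with 10 upward (16.1%) and 6 downward (9.68%). In it, a region in intron 3 of the death receptor gene Tnfrsf10b stood at 14.5, 46.0, 23.0, 11.6 and 53.5. DNA crosslink and excision repair had 74 members, medians of 0.00 in Oxali and 0.05 in Cispl, and 32 of the 74 in Rad51b, a recombination repair gene. Its region in intron 7 stood at 10.3, 57.4, 32.5, 13.9 and 55.2, and held an NF-kappaB match.

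Interferon signalling had 57 members in 21 of 42 genes, with an IFNγ median of -0.04 and 5 upward and 5 downward, near the all-member shares. Its named region lay in intron 2 of Ptpn2, a phosphatase that acts on JAK kinases, with levels of 2.31 in Ctrl, 9.14 after Oxali, 6.18 after Cispl, 3.33 after IFNγ and 9.22 after Oxali + IFNγ. Class I antigen processing and presentation had 17 members in 9 of 26 genes, 1 upward and 0 downward in IFNγ, and 2 upward (11.8%) and 5 downward (29.4%) in Oxali. The named one, in the Cd274 gene of the checkpoint ligand PD-L1 at chr19:29371691-29372741, stood at 2.64, 4.35, 5.30, 2.91 and 9.22. Oxali + IFNγ was the highest list, 1.13 (0.64 to 1.64) above Oxali, and its window held an ISRE match.

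Receptor tyrosine kinases and the Ras pathway had 305 members, of which 179 overlapped the annotated body of Fgfr2, those named for other genes included. The Oxali median was 0.11 with and without that gene. A region in intron 4 of Met, the hepatocyte growth factor receptor gene, stood at 2.64 in Ctrl, 13.7 after Oxali, 9.74 after Cispl, 2.81 after IFNγ and 18.1 after Oxali + IFNγ. Rab GTPase regulators had 197 members, a Cispl median of 0.23 and 65 upward (33.0%) against 16 downward (8.12%). In intron 1 of Dennd2a, a Rab exchange factor gene, the levels were 2.22, 11.0, 12.8, 3.64 and 11.0. It was near equal over the lists with a platinum drug.

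AP-1, Runx and Ets factor genes had 152 members and an IFNγ median of 0.13, 21 upward (13.8%) and 8 downward (5.26%), near the shares of all members. Epithelial junctions and keratins had 161, with 0.10 in IFNγ and -0.05 in Cispl, Hippo and YAP-TEAD 136, with Oxali at 0.03, and Wnt signalling 133, with Oxali at -0.05 and Cispl at -0.12. Histone acetyltransferases and deacetylases had 129 members with Oxali at 0.09 and Cispl at 0.12, close to all members. Regions in Elf4, an Ets factor gene, Afdn, which encodes the junction protein afadin, and Wwtr1, which encodes the YAP relative TAZ, had Oxali shifts of 2.42, 2.23 and 2.53. Those in the Wnt ligand gene Wnt7b and the coactivator gene Ncoa2 had Cispl shifts of 1.99 and 2.13. Lineage genes of other cell types had 27 members in 11 of 20 genes, 11 upward (40.7%) and 4 downward (14.8%) in Oxali. A region named for Ins2 lay within its long annotated body, 28479 bp from the annotated gene start. It had levels of 6.18 in Ctrl, 6.21 after Oxali, 7.77 after Cispl, 3.12 after IFNγ and 2.63 after Oxali + IFNγ.

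**Figure D5:**
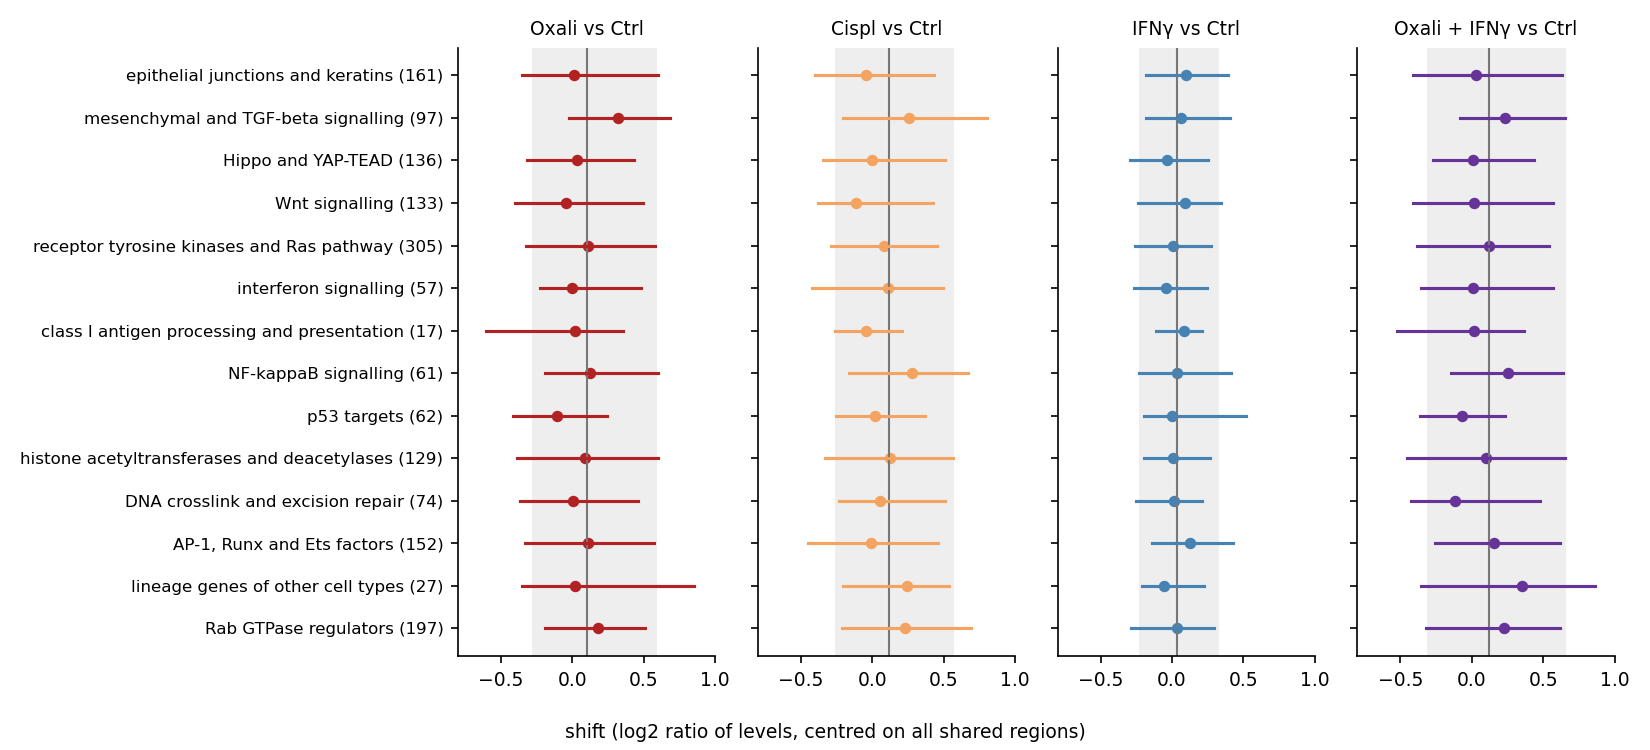
Median shift (log2, points) and quartiles (lines) of the members in each gene list shown, for the 4 treatments against Ctrl, with the number of members in brackets. The grey band and line are the quartiles and median of all members, and the mesenchymal list lies at 0.32 in Oxali.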

How the data were processed

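Chromatin accessibility was measured by ATAC-seq in 10 libraries of Myc-CaP cells, 2 in each of 5 groups taken from the sample labels. Per the labels and the study's methods, the authors trimmed reads with cutadapt, aligned them to mm10 with Bowtie2 2.2.8, removed poorly mapped, duplicate and mitochondrial reads with SAMtools and Picard, pooled the 2 libraries of a group, called peaks with MACS2 2.1.0 and took out peaks in ENCODE blacklist regions. Each deposited list gives, for each summit, the fold ratio over local background and a −log10 p-value and q-value. The deposited lists hold summits at a −log10 p of at least 2.00, or 2.99 in Cispl. Pooling leaves no spread between libraries and no depth per library. It also makes what is called depend on depth, for which the genome backgrounds of 9.62 to 13.8 are the measure used.

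From fold and −log10 p, the pileup and local background of each summit were solved exactly (100% of summits, tested on simulated data). Regions were merged at 1 bp and annotated with GENCODE M21, and sequence and repeat masking were read from GRCm38. No further filter on problem regions was applied. Python 3.11.15, numpy 2.4.6, pandas 2.3.3, scipy 1.17.1 and matplotlib 3.10.9 were used. A shift of at least 1.5-fold, relative to all shared regions, was counted as past the fold. With 1 list per group no test was made.

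Members and gene lists were chosen with earlier results of these data known. Named regions were the 5 largest shifts in each direction per treatment, and 3 for each pair of treatments (mean pileup at least 100, under 50% repeats, 1 per gene), the 8 highest levels, the genes with most members (10) or the most extreme median shift (4 per direction and treatment, at least 5 members), and 1 region per gene list. Some of these genes, regions and lists are not reported here. Alternatives were other windows, thresholds, overlaps, repeat and pileup filters, gene sets, measures, centrings and folds.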

Additional observations from a re-analysis of the deposited data

Results flagged for a closer look

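The region in Ifi47 had shifts of opposite sign for the same agent. Interferon-γ alone against Ctrl gave -0.83, and interferon-γ added to oxaliplatin, against Oxali, gave 1.17. Both counting intervals were clear of 0, but each group was 1 pooled list, so the difference between the 2 shifts was not tested. It was looked for among 67 named regions. Of all 32327 members, 27 were at least 1.5-fold lower with interferon-γ alone and higher with it on top of oxaliplatin, 25 showed the reverse, 253 were higher in both comparisons and 136 lower in both. Over all 85377 shared regions the counts were 59, 67, 627 and 1407, so that lower in both was there the more frequent, unlike in members. The shared regions include start-site regions, of which 12.5% were lower in Oxali + IFNγ than in Oxali. That share was 1.87% in intergenic regions and 1.62% in members, so the contrast is not particular to gene bodies.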

How the results depend on the processing

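No paired analysis was possible because each list merges both libraries of its group, and leaving out a replicate was not possible for the same reason. The number of members ran from 22972 to 36376 over 7 alternatives, each within 1.5 times of 32327. Of the 66 median shifts over alternatives, 57 moved by no more than 0.1, 4 by more and 5 changed sign. Of 144 counts past the fold, 109 stayed within 1.5 times.

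Where called intervals had to cover 50% of the region in every list, the median shift of members was 0.00098 for Oxali, 0.0051 for Oxali + IFNγ and -0.014, of opposite sign, for Cispl. Members higher were then 4204 for Oxali, 3461 for Cispl, 2101 for IFNγ (1195 lower), 4595 for Oxali + IFNγ, 1906 for Cispl against Oxali and 602 for Oxali + IFNγ against Oxali, from fewer members. With no centring, medians were 0.25 for Oxali, 0.26 for Oxali + IFNγ, -0.21 for IFNγ and -0.085 for Cispl against Oxali, the last pair reversed, which follows from the centres given in the report. Lower members were then 1618 for Oxali and 2283 for Oxali + IFNγ, with 1300 higher and 5550 lower for IFNγ, and 2273 and 4286 for Cispl against Oxali.

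At 2-fold, higher and lower members were 3801 and 494 for Oxali, 3384 and 462 for Cispl, 608 and 240 for IFNγ, 4497 and 767 for Oxali + IFNγ, 851 and 467 for Cispl against Oxali, and 71 and 36 for Oxali + IFNγ against Oxali. With the fold over local background, the IFNγ median was -0.0050, and there were 2241 higher members for IFNγ, 1740 lower for Cispl and 1580 lower for Cispl against Oxali. With summed summits, 3215 members were lower for IFNγ, and 2340 higher and 1146 lower for Oxali + IFNγ against Oxali. Within level classes, the median of Cispl against Oxali was -0.0071 with 2310 higher, and Oxali + IFNγ against Oxali had 663 higher and 878 lower. There the regions of Creb3l2 (Cispl 0.18), Ston1 (Cispl 0.25, Oxali + IFNγ 0.53) and Mroh4 (Oxali + IFNγ 0.38) changed sign. Without members of 50% or more repeats, 348 were lower for Oxali + IFNγ against Oxali. The cause was not tested for the last 3 settings. With a 50 bp window, 15 of 18 motif shares in members moved. An alternative chosen after seeing the data, only members with summits within 150 bp, left every median and count within those limits.

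Depth limits single regions near the calling limit, where a level of about 2 rests on a low pileup, and 7.83% of members had a mean pileup under 50. The lack of signal per library in the pooled lists limits every comparison.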
